A study of Mus musculus with 26 samples.

Results

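Pyruvate dehydrogenase and the enzymes that switch it on and off were followed in mouse hindlimb muscle across a muscle-specific deletion of the coactivator PGC-1a and a long calorie restriction. The set holds 10 genes of the 18193 that a probe set of the array names alone. They were chosen with earlier results of these data known and were matched by symbol. They are the kinases Pdk1, Pdk2, Pdk3 and Pdk4, the phosphatase Pdp2, and the complex subunits Pdha1, Pdhb, Dlat, Pdhx and Dld. The 10 genes had 18 probe sets (the groups of short probes that read 1 transcript), of which 16 passed a filter that removed the dimmest 30% of all probe sets. Pdp2 did not pass, which left 9 genes to test.

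Total RNA came from the tibialis anterior and extensor digitorum longus muscles (TA/EDL) of 26 mice, 1 array each. The groups were 7 restricted knockout mice (CR MKO), 6 restricted floxed mice (CR FLOX), 7 knockout mice on the control diet (control diet MKO) and 6 floxed mice on the control diet (control diet FLOX). MKO mice lack PGC-1a in their skeletal muscle by design, and FLOX mice are their littermate controls. All lived in single cages, and their background was a mix of C57/BL6 and 129. All ate AIN-93M diet freely for at least 10 days to set each mouse's own intake. Control diet mice then received 90% of that intake, so they were slightly restricted too. CR mice received 80% for 1 week and 60% for about 11 weeks after it, as a diet made for 40% restriction. The diets ran 12 weeks. The sources used here do not give the driver of the knockout, the sex and age of the mice, or the time of tissue collection and of the last meal before it.

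The pyruvate dehydrogenase complex converts pyruvate from glycolysis into acetyl-CoA inside mitochondria and so helps to set whether muscle burns glucose or spares it. Pyruvate dehydrogenase kinases phosphorylate its E1 subunit and shut it off, and pyruvate dehydrogenase phosphatases take the phosphate away and turn it back on. Pdk4 is the kinase best known for rising in fasted muscle, while Pdk2 is the widely expressed one. PGC-1a is a coactivator of nuclear receptors that raises mitochondrial genes and, in cultured muscle cells, Pdk4.

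Values are the deposited array intensities on a linear scale, and a change is the difference of group means of log2(intensity + 16) fitted with limma over all 26 arrays. A gene was called when its p, adjusted by Benjamini-Hochberg over 14847 genes, was under 0.05. The targeted gene did not check the labels: all 5 Ppargc1a probe sets were brighter in mice labelled MKO. The fold ranged over them from 1.34 to 1.57 on CR and from 1.53 to 1.76 on the control diet, and the labels do not say where these probes lie relative to the deleted part. MKO and FLOX are therefore used throughout as the labels give them. The brightest averaged 1674 ± 160 in CR MKO mice against 1104 ± 189 in CR FLOX mice, and 1542 ± 372 in control diet MKO mice against 910.8 ± 67.3 in control diet FLOX mice (SD). The muscle label held: markers of fast fibres such as Myh4 and Ckm were bright in every group, and none of 8 passed the limma test in any comparison (at most 1 had an unadjusted p under 0.05 in each of the 4 group comparisons). Array medians lay between 212 and 232, no intensity was 0, and mice of 1 group correlated at 0.984 or more over the log2 values of the 14847 tested genes.

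The 5 subunits shared 1 pattern of calls and the kinases did not, and Pdk3 was called in no comparison. MKO mice had lower levels of every one of the 5 subunits and of Pdk2 than FLOX mice on both diets, and higher Pdk1. None of the 5 subunits passed the test for restriction in either genotype, whereas among the kinases Pdk4 fell and Pdk2 rose with it in MKO mice. In CR against control diet in MKO, 1 of 9 members was called higher and 1 lower, where 15.1% of all genes were called (6.64% higher and 8.49% lower). In CR against control diet in FLOX, 0 of 9 members were called by limma and 2 had an unadjusted p under 0.05, where 10.0% of all genes were called (4.66% higher and 5.37% lower). In MKO against FLOX on CR, 1 of 9 members was called higher and 7 lower, where 17.3% of all genes were called (8.23% higher and 9.05% lower). In MKO against FLOX on the control diet, 1 of 9 was higher and 6 lower, where 19.3% of all genes were called (9.06% higher and 10.2% lower). The share of members called lower in MKO mice was thus several times that of all genes. The members were chosen with earlier results of these data known, so this describes the set and is no test of it. With restriction 2 of 9 members were called in MKO mice and 0 of 9 in FLOX mice, too few to set against the shares of all genes. On each diet 6 of 9 members, Pdk2 and the 5 subunits, had every MKO mouse below every FLOX mouse, where 4.54% of all genes did so on CR and 3.81% on the control diet.

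**Figure D1:**
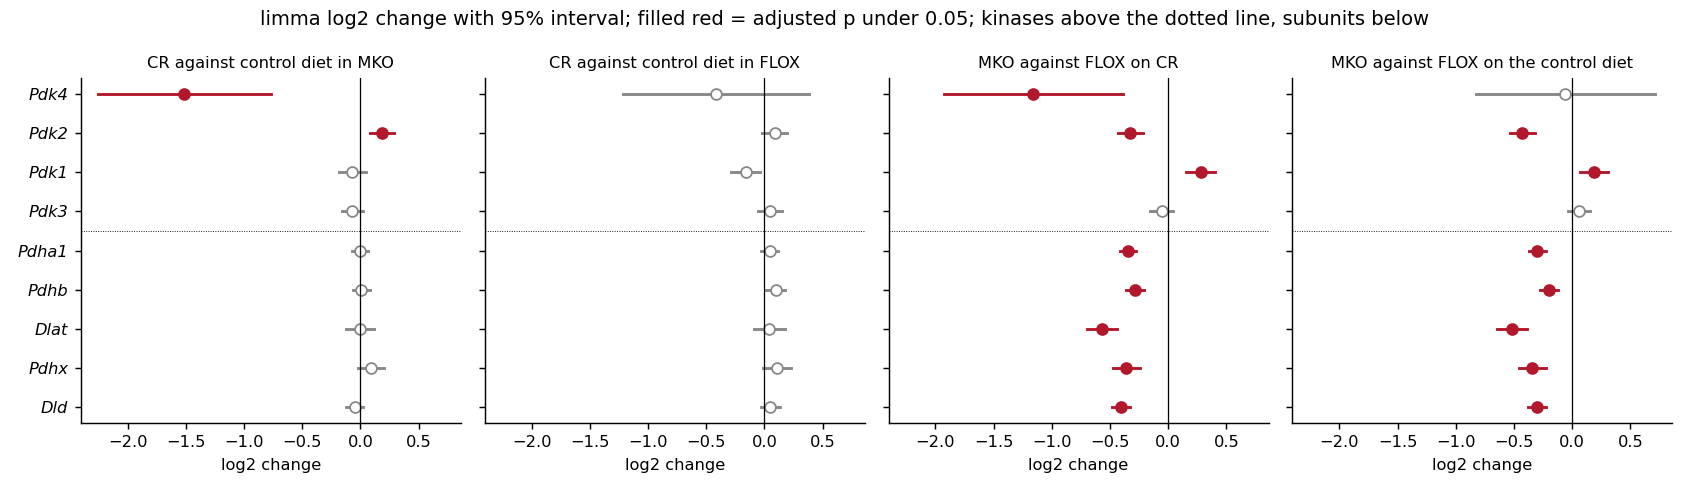
Log2 change of the 9 tested members in 4 comparisons, with 95% intervals from limma. Filled red points passed an adjusted p of 0.05, kinases lie above the dotted line and subunits below it. All 5 subunits lie left of 0 in both knockout comparisons and near 0 in both restriction comparisons, and Pdk4 has the widest intervals.

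Pdk4 (chromosome 6, 5483351 to 5496278, GRCm38.p6) varied more between mice than any other member. Its intensities were 1537, 2055, 2082, 2232, 2259, 2715 and 4845 in CR MKO mice. In CR FLOX mice they were 2232, 2958, 4128, 6806, 10265 and 12148. The restricted FLOX mice spread widely and included the highest of all 26, while 4 of 7 CR MKO mice lay below every one of them. For 1 of these 4 it was a near tie, with 2231.61 in CR MKO 2 against 2231.7 in CR FLOX 2. In control diet MKO mice they were 2243, 4549, 6595, 8726, 9735, 10514 and 11550. In control diet FLOX mice they were 4744.5, 5018, 6352, 8258, 8682 and 11971. CR MKO mice were low as a group, with 6 of 7 under 3000 and 4 of 7 below every control diet MKO mouse, though every group overlapped every other. The highest value over the lowest was 3.15 in CR MKO, 5.44 in CR FLOX, 5.15 in control diet MKO and 2.52 in control diet FLOX mice.

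In MKO mice Pdk4 was 2.85-fold lower with restriction, at 2532 ± 1078 in CR MKO mice against 7702 ± 3388 in control diet MKO mice (SD, n = 7 each). The log2 change was -1.51 ± 0.36 (SE) with an adjusted p of 0.00485, and an exact two-sided permutation test over these 14 mice gave p = 0.00466 (0.0186 after Benjamini-Hochberg over 4 comparisons). In FLOX mice the log2 change was -0.41 ± 0.39, adjusted p = 0.606 (exact permutation p = 0.385), with means of 6423 ± 4063 in CR FLOX mice and 7504 ± 2722 in control diet FLOX mice (SD, n = 6 each). Its 95% interval ran from -1.21 to 0.39, so a fall of more than 2-fold in FLOX mice lay within it. The difference between the genotypes in this response, tested as the interaction, was -1.10 (95% interval -2.19 to -0.0090), with an unadjusted p of 0.0483 and an adjusted p of 0.999.

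Between genotypes, Pdk4 passed the test on CR only, and with an adjusted p near the threshold. MKO against FLOX on CR had a log2 change of -1.16 ± 0.38 (2.23-fold lower, adjusted p = 0.0323, exact permutation p = 0.0204, or 0.0408 after adjustment). MKO against FLOX on the control diet had -0.058 ± 0.38 (adjusted p = 0.934, exact permutation p = 0.895), with a 95% interval from -0.83 to 0.71. The call on CR was lost when any 1 of 7 mice was left out: CR FLOX 4, 5 or 6 (adjusted p of 0.0683, 0.0867 and 0.0957) or CR MKO 2, 3, 6 or 7 (0.0531, 0.0521, 0.0549 and 0.0643). The log2 change stayed between -1.15 and -1.05 in 5 of these refits and was -0.97 without CR FLOX 5 and -0.92 without CR FLOX 6. It was also lost (0.0640) without CR MKO 6, control diet MKO 4 and control diet FLOX 1, where the log2 change was -1.12. In these 3 mice the mean log2 level of the slow fibre genes Myh7, Tnni1 and Tnnt1 was more than 1 above the median of all mice, and they were set apart after the data were seen. The fall with restriction in MKO mice stayed called when any 1 of the 26 mice was left out, with log2 changes between -1.78 and -1.39.

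**Figure D2:**
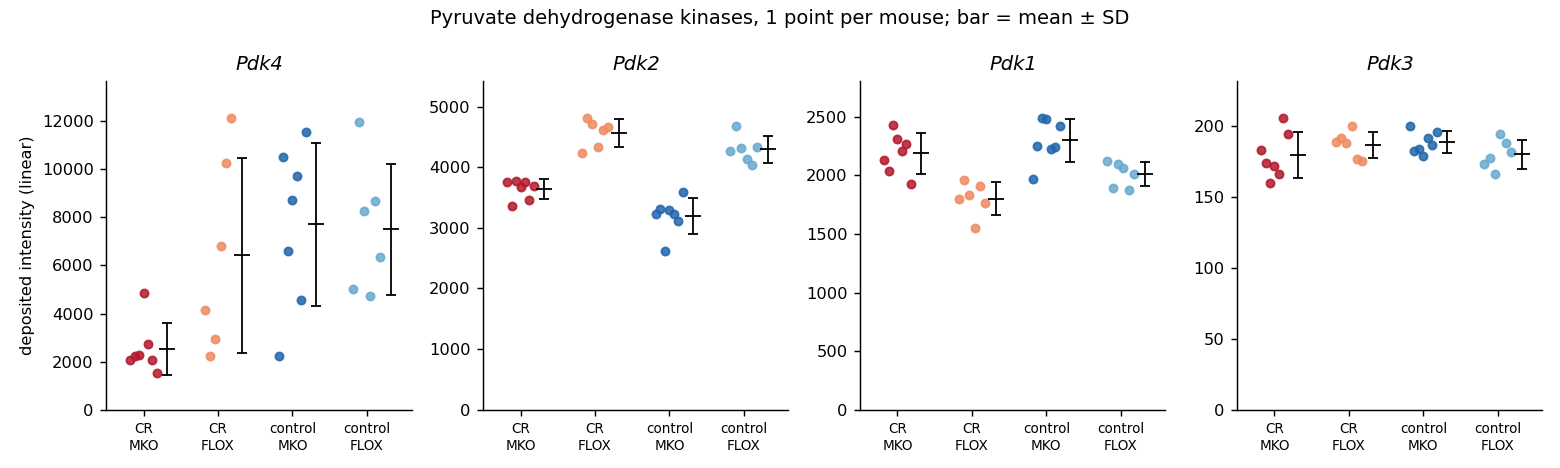
Deposited linear intensity of the 4 pyruvate dehydrogenase kinases, 1 point per mouse, with the mean and SD of each group as a bar. Axes start at 0. Pdk4 lies under 3000 in 6 of 7 CR MKO mice, Pdk2 separates MKO from FLOX mice on both diets, and Pdk1 is higher in MKO mice.

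Pdk2 (chromosome 11, 95026258 to 95041371) is the most widely expressed of the kinases. Its lowest, median and highest intensities were 3360, 3686 and 3779 in CR MKO mice, 4238, 4642 and 4818 in CR FLOX mice, 2615, 3235 and 3594 in control diet MKO mice and 4033, 4296 and 4674 in control diet FLOX mice. On either diet each of the 7 MKO mice was below every FLOX mouse. Pdk2 was 1.25-fold lower in MKO mice on CR (log2 change -0.33 ± 0.05, adjusted p = 4.76e-05) and 1.34-fold lower on the control diet (-0.43 ± 0.05, adjusted p = 1.51e-06). With restriction it was 1.14-fold higher in MKO mice (0.19 ± 0.05, adjusted p = 0.0107), where 5 of 7 CR MKO mice exceeded every control diet MKO mouse. In FLOX mice the change was 0.087 ± 0.054 (adjusted p = 0.368, 95% interval -0.024 to 0.20), and the interaction, 0.10 ± 0.07, had an unadjusted p of 0.181. Pdk2 and Pdk4 therefore ran in opposite directions under restriction in the same MKO mice.

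Pdk1 (chromosome 2, 71873215 to 71903858), known as a target of hypoxia-inducible factor, was the only member called higher in MKO than in FLOX mice. Its brightest probe set had 1924, 2212 and 2434 as lowest, median and highest in CR MKO mice, and 1553, 1817 and 1959 in CR FLOX mice. The matching values were 1970.3, 2253 and 2494 in control diet MKO mice and 1878, 2036 and 2122 in control diet FLOX mice. In each diet 6 of 7 MKO mice exceeded every FLOX mouse. The rise was 1.21-fold on CR (log2 change 0.28 ± 0.06, adjusted p = 0.00121) and 1.14-fold on the control diet (0.19 ± 0.06, adjusted p = 0.0230). Both dimmer passing Pdk1 probe sets were also higher on CR, by 1.25-fold and 1.11-fold (adjusted p of 0.0138 and 0.0442 in the fit over probe sets). On the control diet they did not pass (1.15-fold and 1.06-fold, adjusted p of 0.133 and 0.276). The control diet call was lost without control diet FLOX 2 (adjusted p = 0.0594) or 5 (0.0622), without control diet MKO 3 (0.0530) or 4 (0.0540), and without the 3 mice rich in slow fibre transcripts (0.0534). The log2 change stayed between 0.17 and 0.19 in these refits, close to the value over all mice. The call was also lost with the mean of the probe sets (0.16, adjusted p = 0.0648). Restriction gave the brightest Pdk1 probe set a log2 change of -0.070 in MKO mice (adjusted p = 0.469) and -0.16 in FLOX mice (adjusted p = 0.104), neither past the threshold. In MKO mice the dimmer probe sets went the other way, at 0.21 (limma unadjusted p = 0.0225, adjusted p = 0.107) and 0.060 (adjusted p = 0.469). In FLOX mice they had 0.090 and -0.0044, also not past the threshold. The probe sets thus give no common direction for Pdk1 under restriction.

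Pdk3 (chromosome X, 93764616 to 93832150), a kinase best known from testis, was dim, with its probe set at percentile 38.3 of mean intensity. Its intensities spanned 160 to 206 in CR MKO mice, 176 to 200.2 in CR FLOX mice, 179 to 200.5 in control diet MKO mice and 167 to 195 in control diet FLOX mice. All groups overlapped, no comparison passed, and the log2 changes between groups ran from -0.070 to 0.061, with an interaction of -0.12 (unadjusted p = 0.0827). Pdp2 (chromosome 8, 104591472 to 104599026), 1 of the 2 catalytic phosphatases of the complex, was dimmer still, at percentile 25.7, and was not tested. It ranged from 142 to 157 in CR MKO mice, 147 to 166 in CR FLOX mice, 138 to 154 in control diet MKO mice and 145 to 164 in control diet FLOX mice.

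The subunits make up the complex itself. Pdha1 (chromosome X, 160122219 to 160138430) is the E1 alpha subunit that the kinases phosphorylate. Its lowest, median and highest intensities were 8832, 9102 and 9430.0 in CR MKO mice and 11085, 11756 and 11991 in CR FLOX mice. On the control diet they were 8449.7, 9272 and 9745 in MKO mice and 10886, 11123 and 11996 in FLOX mice. The groups did not overlap between genotypes on either diet. Pdha1 was 1.27-fold lower in MKO mice on CR (log2 change -0.35 ± 0.03, adjusted p = 3.66e-08) and 1.23-fold lower on the control diet (-0.30 ± 0.03, adjusted p = 6.61e-07), and its second probe set gave 1.28-fold and 1.26-fold.

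Dlat (chromosome 9, 50634633 to 50659780), the E2 acetyltransferase that forms the core of the complex, had the largest fall of the 5 subunits in both knockout comparisons. It ranged from 2648 to 3091 in CR MKO mice and from 3974 to 4479 in CR FLOX mice, with medians of 2903 in CR MKO and 4271 in CR FLOX mice. On the control diet it ranged from 2417 to 3368 in MKO mice and from 3564 to 4489 in FLOX mice, with medians of 2944 in MKO and 4166 in FLOX mice. The groups did not overlap on either diet. Dlat was 1.48-fold lower on CR (log2 change -0.57 ± 0.06, adjusted p = 1.33e-07) and 1.43-fold lower on the control diet (-0.52 ± 0.06, adjusted p = 9.59e-07). Both other Dlat probe sets were lower too, by 1.49-fold and 1.69-fold on CR and by 1.45-fold and 1.37-fold on the control diet.

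Dld (chromosome 12, 31331562 to 31351471), the E3 dehydrogenase that this complex shares with its sister complexes, ranged from 3672 to 4112 in CR MKO mice against 4893 to 5407 in CR FLOX mice. On the control diet the ranges were 3737 to 4278 in MKO mice and 4701 to 5234 in FLOX mice. No MKO mouse reached a FLOX mouse on its diet. Dld was lower by 1.32-fold on CR (log2 change -0.40 ± 0.04, adjusted p = 1.12e-08) and by 1.23-fold on the control diet (-0.30 ± 0.04, adjusted p = 1.85e-06). A second Dld probe set, at 160 to 190 in all 26 mice, showed no difference that passed. Pdhx (chromosome 2, 103021055 to 103073513), the E3-binding protein, ranged from 1768 to 2175 in CR MKO mice against 2378 to 2946 in CR FLOX mice, and from 1633 to 2056 in control diet MKO mice against 2187 to 2457 in control diet FLOX mice. Here too the genotypes did not overlap. Pdhx was 1.28-fold lower on CR and 1.27-fold lower on the control diet (adjusted p of 3.10e-05 and 7.26e-05).

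Pdhb (chromosome 14, 8165991 to 8173303), the E1 beta subunit, had the smallest fall. It ranged from 6185 to 7178 in CR MKO mice against 7752 to 8546 in CR FLOX mice, and from 6099 to 6955 in control diet MKO mice against 7077 to 7892 in control diet FLOX mice. The genotypes again stood apart on each diet. Pdhb was 1.22-fold lower on CR (log2 change -0.29 ± 0.04, adjusted p = 3.09e-06) and 1.15-fold lower on the control diet (-0.20 ± 0.04, adjusted p = 5.42e-04). Its dimmer probe set was lower on CR (1.22-fold, adjusted p = 5.06e-04) but did not pass on the control diet (1.09-fold, adjusted p = 0.134).

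**Figure D3:**
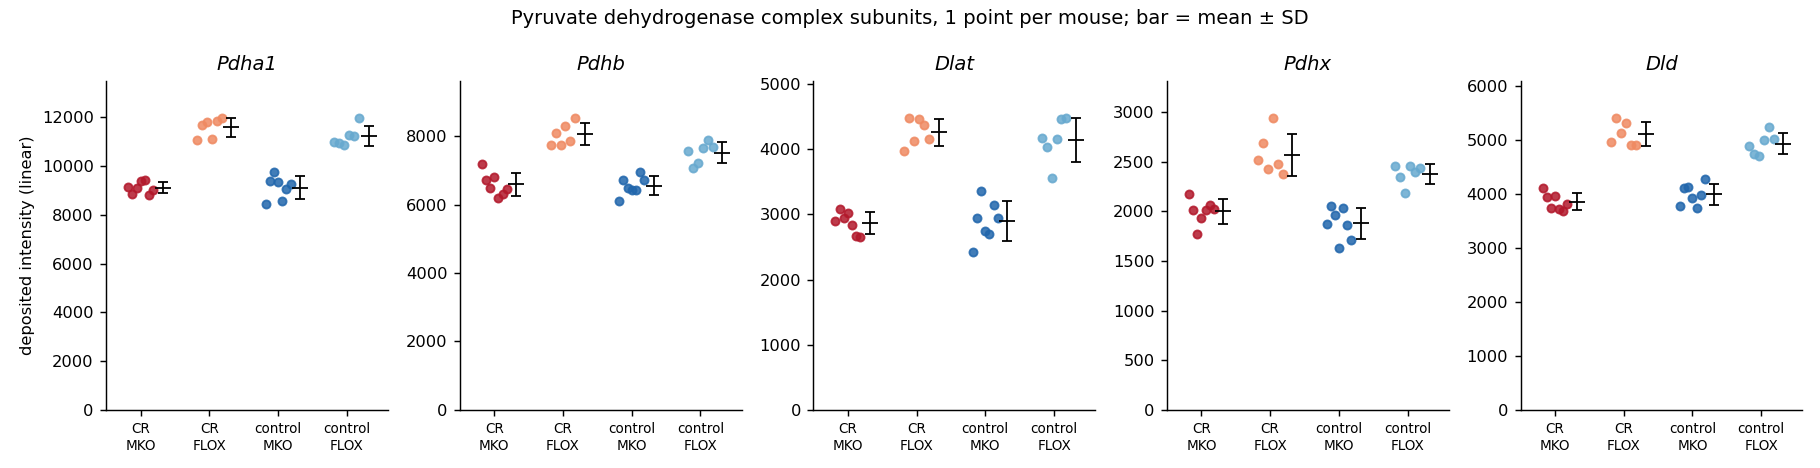
Deposited linear intensity of the 5 complex subunits, 1 point per mouse, with the mean and SD of each group as a bar. Axes start at 0. On each diet all 7 MKO mice lie below all 6 FLOX mice for each of the 5 genes, and restricted and control diet mice of 1 genotype overlap.

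Over the 5 subunits the median log2 change was -0.36 for MKO against FLOX on CR and -0.30 on the control diet, against -0.016 for all genes in both. Leaving out each mouse in turn kept each of these 10 falls called, with log2 changes between -0.59 and -0.18. Without the 3 mice rich in slow fibre transcripts they lay between -0.55 and -0.19 and were still called. Summed slow fibre markers were 8589 to 23524 (median 10463) in CR MKO mice and 4889 to 8449 (median 8023) in CR FLOX mice. On the control diet they were 7523 to 12939.5 (median 10842) in MKO mice and 3787 to 11375 (median 6091) in FLOX mice. Of these 7 markers 1 was called higher on each diet, Myl2 on CR and Myl3 on the control diet. The part of fibre make-up in the subunit falls was not tested. In whole muscle, fewer fibres of a kind and less RNA in each cannot be told apart.

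Restriction left no subunit past the threshold. Over all genes 15.1% were called with restriction in MKO mice and 10.0% in FLOX mice, so 5 genes are too few to set against these shares. In CR against control diet in MKO, 0 of 5 were called and 0 had an unadjusted p under 0.05 in limma, with 95% intervals of the log2 change that all lay between -0.13 and 0.20. In CR against control diet in FLOX, 0 of 5 were called and 1, Pdhb, had an unadjusted p under 0.05 (0.0181), with intervals between -0.087 and 0.23. The mean of the Pdhb probe sets did pass there (log2 change 0.16, adjusted p = 0.0140), through the dimmer probe set, which was 1.16-fold higher (adjusted p = 0.0165). The interaction of diet and genotype called 0 of 9 members and 0 (0%) of all genes. At an unadjusted p under 0.05 it held 720 genes and, of the members, only Pdk4.

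Promoter windows are shown for 3 genes with different patterns: Pdk4 (lower with restriction in MKO mice), Dlat (the largest subunit fall) and Pdk2 (lower in MKO mice, higher with restriction in them). Each runs 5′ to 3′ on the gene's own strand (the minus strand) from 250 bases before to 50 bases after the annotated start, from RefSeq on GRCm38.p6, at chr6:5496229-5496528, chr9:50659731-50660030 and chr11:95041322-95041621. Capitals mark CCAAT or GGGCGG on either strand.
Pdk4: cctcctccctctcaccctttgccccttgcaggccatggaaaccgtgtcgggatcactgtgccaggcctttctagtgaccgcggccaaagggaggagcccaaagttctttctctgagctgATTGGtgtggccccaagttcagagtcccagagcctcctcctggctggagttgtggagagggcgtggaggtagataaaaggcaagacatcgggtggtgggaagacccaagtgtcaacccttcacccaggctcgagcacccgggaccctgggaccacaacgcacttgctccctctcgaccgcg
Dlat: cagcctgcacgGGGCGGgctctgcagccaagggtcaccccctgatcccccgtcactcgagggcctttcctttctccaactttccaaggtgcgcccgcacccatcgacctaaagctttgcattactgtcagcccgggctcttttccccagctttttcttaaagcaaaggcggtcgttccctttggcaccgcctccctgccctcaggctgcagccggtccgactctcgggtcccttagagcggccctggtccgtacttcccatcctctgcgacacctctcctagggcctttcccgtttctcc
Pdk2: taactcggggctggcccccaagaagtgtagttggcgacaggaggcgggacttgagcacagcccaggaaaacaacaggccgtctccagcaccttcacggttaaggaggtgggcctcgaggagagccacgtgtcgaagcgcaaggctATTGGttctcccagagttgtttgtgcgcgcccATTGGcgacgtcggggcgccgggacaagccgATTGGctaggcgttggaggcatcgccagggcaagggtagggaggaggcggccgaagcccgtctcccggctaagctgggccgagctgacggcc

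Pdk4 held 1 CCAAT, 131 bases before the start, Pdk2 held 3, at 105, 73 and 42 bases, and Dlat held 1 GGGCGG at 239 bases. Both strands of 32851 mouse promoter windows of this length were searched. CCAAT was present in 37.4% of them and in 7 of the 12 windows of the 10 genes (Pdk1 and Pdk2 have 2 windows each), and GGGCGG in 35.7% and in 6 of 12. The half-site of estrogen-related receptors, AAGGTCA, was present in 4.72% of windows and in 0 of 12. The PPAR repeat, 2 copies of AGGTCA with any 1 base between them, was present in 0.0396% and in 0 of 12, and it also holds the half-site where an A stands before either copy. The FOXO motif GTAAACA was present in 3.65% and in 0 of 12. These letters were searched in short windows only, so an absent match says nothing about the factors.

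Other regulators of the complex and genes of its cofactors were taken as a list of 14 genes, of which 12 were tested. Of all genes 6.64% were called higher with restriction in MKO mice and 4.66% in FLOX mice. Restriction raised 6 of these 12 in MKO mice and 5 of 12 in FLOX mice, and lowered none. They include Pdp1, the main muscle phosphatase of the complex, which averaged 3050 ± 178 in CR MKO mice against 2209 ± 190 in control diet MKO mice, and 3223 ± 575 in CR FLOX mice against 2271 ± 179 in control diet FLOX mice (SD). Pdp1 rose 1.38-fold in MKO mice (adjusted p = 1.31e-04) and 1.40-fold in FLOX mice (adjusted p = 3.40e-04). Between the same groups of MKO mice the mean of the kinase Pdk4 was lower with restriction and that of the kinase Pdk2 was higher. Lias, Lipt1 and the iron-sulfur gene Nfu1, which take part in making or attaching the lipoyl arm of Dlat, rose by 1.16-fold, 1.16-fold and 1.18-fold in MKO mice and by 1.30-fold, 1.15-fold and 1.10-fold in FLOX mice.

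Of these 12 genes, 5 were lower in MKO than in FLOX mice on each diet and none higher. Over all genes 9.05% were called lower on CR and 10.2% on the control diet. Sirt3, a mitochondrial deacetylase, averaged 597 ± 21.0 in CR MKO mice against 1113 ± 54.6 in CR FLOX mice (1.84-fold lower), and 656 ± 58.2 in control diet MKO mice against 1045 ± 69.7 in control diet FLOX mice (1.58-fold lower). Pdpr, the regulatory subunit of the phosphatase, was 1.23-fold lower on CR and 1.14-fold lower on the control diet (adjusted p of 4.13e-04 and 0.0168). The iron-sulfur genes Glrx5 and Bola3, needed for lipoate synthesis, were 1.27-fold and 1.23-fold lower on CR and 1.26-fold and 1.24-fold lower on the control diet. Pdp1 did not pass between genotypes (log2 change -0.063 on CR and -0.040 on the control diet).

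The steps before and after the complex were set beside it. Of 16 genes of pyruvate entry and lactate handling, 6 were lower and 2 higher in MKO mice on CR. On the control diet 7 were lower and 1 higher. Over all genes 9.05% were called lower and 8.23% higher on CR, and 10.2% lower and 9.06% higher on the control diet. Ldhb, the lactate dehydrogenase subunit of oxidative tissue, was 1.95-fold lower on CR and 1.89-fold lower on the control diet, and the monocarboxylate transporter Slc16a1 was 1.40-fold and 1.43-fold lower on these diets. Mpc1, part of the carrier that brings pyruvate into mitochondria, was 1.21-fold lower on CR. Of 16 TCA cycle genes, 16 were lower in MKO mice on CR and 15 on the control diet. Restriction raised 1 and lowered 1 of them in MKO mice and raised 1 in FLOX mice. With restriction 15.1% of all genes were called in MKO mice and 10.0% in FLOX mice. The median log2 change of the TCA cycle genes was -0.30 on CR and -0.26 on the control diet, beside -0.36 and -0.30 for the 5 subunits. Of 9 genes of the sister dehydrogenase complexes 6 were lower on each diet, with Dlst 1.37-fold and 1.33-fold lower.

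Genes whose profile over the 26 mice was most like that of Pdk4 were ranked by Pearson's r of the log2 values among the other 14846 genes, which describes these mice and is no test. The highest was Ucp3, a mitochondrial carrier of muscle linked to fatty acid use, at r = 0.93 (Spearman's rho 0.92). It was followed by the caveolae genes Cav1 (0.83) and Cav2 (0.82), the carnitine palmitoyltransferase Cpt1a (0.80) and the RNA polymerase III factor Bdp1 (0.79). The lowest were Rgma (-0.90), a BMP co-receptor, the small heat shock gene Hspb3 (-0.83) and Pwwp3b (-0.82). After each group's mean was taken away, r was 0.90 for Ucp3, 0.72 for Cpt1a, 0.75 for Cav1, 0.66 for Cav2 and Bdp1, -0.81 for Rgma, -0.76 for Hspb3 and -0.81 for Pwwp3b. Without the 2 mice farthest from the median of Pdk4, r was 0.91 for Ucp3 and -0.87 for Rgma, and the others stayed between 0.75 and 0.80 in size.

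**Figure D4:**
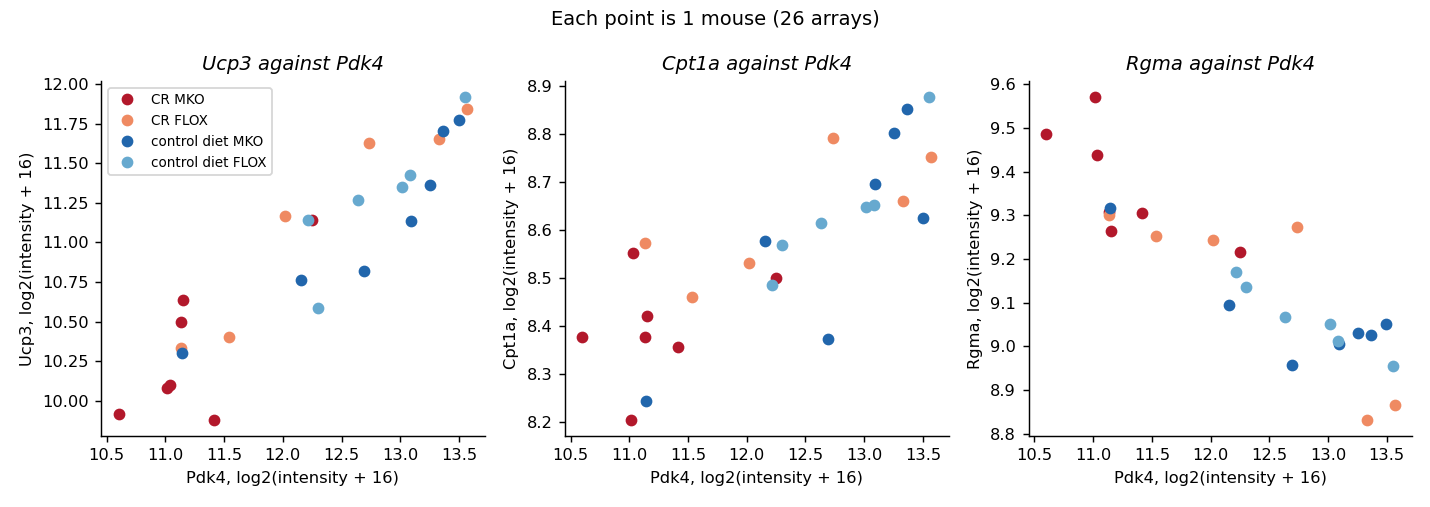
Log2(intensity + 16) of Ucp3, Cpt1a and Rgma on the vertical axes against Pdk4 on the horizontal axis, 1 point per mouse, coloured by group. Ucp3 and Cpt1a rise with Pdk4 and Rgma falls, and with group means taken away r is still 0.90 for Ucp3, 0.72 for Cpt1a and -0.81 for Rgma.

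Ucp3 averaged 1325 ± 474 in CR MKO mice against 2343 ± 840.0 in control diet MKO mice (SD, n = 7 each) and was 1.74-fold lower (adjusted p = 0.0356). It averaged 2485 ± 1015 in CR FLOX mice and 2564 ± 761 in control diet FLOX mice, and was 1.80-fold lower in MKO than in FLOX mice on CR (adjusted p = 0.0280). Cpt1a did not pass in any comparison (adjusted p of 0.0952 for CR in MKO mice and 0.0543 for MKO on CR). Among 19 tested PPAR target genes of muscle, 12 were lower in MKO mice on each diet, where 9.05% of all genes were lower on CR and 10.2% on the control diet. With restriction 6.64% of all genes were called higher and 8.49% lower in MKO mice, and 10.0% were called in FLOX mice. Of the 19 PPAR target genes, restriction raised 2 and lowered 1 in MKO mice and called 0 in FLOX mice (2 at an unadjusted p under 0.05, limma). Their r with Pdk4 over the 26 mice was 0.93 for Ucp3, 0.74 for Angptl4 and between -0.14 and 0.49 for the other 17. For the subunits it lay between 0.090 and 0.36, and with group means taken away between -0.19 and 0.31.

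Some endothelial markers were called lower in the comparisons that called Pdk4 lower, and some also in comparisons that did not call Pdk4. Over all genes 8.49% were called lower with restriction in MKO mice and 5.37% in FLOX mice. Of 5 endothelial markers, 4 fell with restriction in MKO mice and 1 in FLOX mice, while 2 were lower in MKO than in FLOX mice on CR and 1 on the control diet. Their summed level was 3373 to 4237 in CR MKO mice, 4107 to 4411 in CR FLOX mice, 4072 to 5144 in control diet MKO mice and 4162 to 4929 in control diet FLOX mice. Fibroblast markers fell with restriction in both genotypes (4 of 6 in each), with sums of 7726 to 13074 in CR MKO mice, 8481 to 12677 in CR FLOX mice, 13579 to 17663 in control diet MKO mice and 13011 to 16555 in control diet FLOX mice. Their part in the fall of Pdk4 was not tested.

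Pdha1 was most like genes of mitochondrial metabolism: Sod2 (r = 0.96), Sirt3 (0.96), Atp5b (0.96), Coq9 (0.96) and Mdh1 (0.96), which is cytosolic. These values rest largely on the genotypes, since r of the deviations from group means was 0.51 to 0.71. Of the members, Dlat (0.95), Dld (0.94), Pdhb (0.89), Pdk2 (0.82) and Pdhx (0.80) followed Pdha1 over the 26 mice, Pdk1 ran against it (-0.61) and Pdk4 had 0.36. With group means taken away these became 0.60, 0.41, 0.31, 0.0010, -0.19, 0.51 and 0.31, so Pdk2 and Pdhx followed Pdha1 between groups and not between mice of 1 group.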

How the data were processed

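Total RNA of 26 TA/EDL muscle samples was hybridised to Affymetrix mouse arrays after biotin labelling, per the labels' protocols. The authors' deposited values are 1 processed intensity per probe set on a linear scale. The software, background correction and normalization are not given in the sources used here. Scale was judged from the values, and centring is unknown. Intensities were taken as log2(intensity + 16), with log2 values computed here from the deposited intensities. Of 45101 probe sets, 34945 named 1 gene (932 several, 9160 none, 64 controls), by the platform annotation with symbols updated. Probe sets under the 30th percentile of mean intensity were left out, and each gene was read by its brightest remaining one. limma 3.58.1 in R 4.3.3 fitted 1 mean per group over all 26 arrays, for 5 comparisons, with Benjamini-Hochberg adjustment over 14847 genes. The fit was tested on simulated data. The number of arrays limits the precision. All 10 members were named, with at most 4 called genes per list and comparison and the genes most and least like Pdk4 and most like Pdha1. The members and lists were chosen with earlier results of these data known. The lists are the other regulators and cofactor genes, pyruvate entry, TCA cycle, sister dehydrogenases, PPAR targets, FOXO and glucocorticoid targets, hypoxia genes, transcription factors and 7 sets of cell type markers.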

Additional observations from a re-analysis of the deposited data

Results flagged for a closer look

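A check for single mice far from the rest of their group was run on 72 combinations of probe set and group and marked 3, where chance marks about 1 in 20. Pdk4 was 4845 in CR MKO mouse 4, against 2715 in the next highest and 1537 in the lowest of the 7. A dimmer Pdk1 probe set was 945 in CR FLOX mouse 2, against 820.2 in the next highest and 763 in the lowest of the 6. Pdha1 was 11996 in control diet FLOX mouse 6, against 11271 in the next highest and 10886 in the lowest of the 6.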

How the results depend on the processing

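Pseudocounts of 1 and 64, no filter, a 50th percentile filter, quantile and median scaling, an intensity trend, array weights, fits of only the groups compared and the replicate block moved no count of called members by over 1.5 times. With the replicate block the counts were 2 (CR in MKO), 0 (CR in FLOX), 8 (MKO on CR), 7 (MKO on the control diet) and 0 (interaction), as without it. The numbers do not pair the mice: same-numbered mice of different groups had deviations correlated between -0.361 and 0.34, over 0.1 in 16 of 37 pairs, and 9 correlated best with their own number. The count for CR in FLOX mice became 1 with the mean of the gene's probe sets, and that for CR in MKO mice became 1 at an adjusted p under 0.01. Leaving out each mouse gave 2, 0, 7 to 8, 6 to 7 and 0 in the same order. Sign changes occurred only among uncalled values near 0. For CR in MKO mice, Dlat became 0.020 (quantile scaling), 0.010 (mean of probe sets), 0.0041 (brightest without suffix) and 0.0068 (array weights). Pdha1 became 0.010 (mean of probe sets), 0.0012 (array weights) and 0.013 without the 3 slow-rich mice, an alternative chosen after seeing the data, and Pdk1 became 0.068 (mean of probe sets). The interaction of Pdhx became 0.011 with array weights. Leaving out each mouse gave -0.049 to 0.031 for Dlat, -0.019 to 0.015 for Pdha1 and -0.012 to 0.024 for Pdhb in CR in MKO mice, -0.050 to 0.023 for the Pdhx interaction, and -0.18 to 0.21 for Pdk4 in MKO on the control diet. The cause was not tested. Pdk3 and Pdp2 lie near the dim end of the array, so a difference there may not be detectable.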

Other observations

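Of 23 tested FOXO and glucocorticoid target genes of muscle, restriction raised 6 and lowered 3 in MKO mice and raised 3 and lowered 1 in FLOX mice. Over all genes 6.64% were called higher and 8.49% lower in MKO mice, and 4.66% higher and 5.37% lower in FLOX mice. Fkbp5, a glucocorticoid-induced chaperone, averaged 1988 ± 202 in CR MKO mice against 1089 ± 315 in control diet MKO mice, and 1560.0 ± 390.2 in CR FLOX mice against 996 ± 88.0 in control diet FLOX mice (SD). The metallothionein Mt1 was 2.13-fold higher with restriction in MKO mice and 1.68-fold higher in FLOX mice. The ubiquitin ligase gene Fbxo32, a FOXO target, was 2.28-fold lower with restriction in MKO mice (adjusted p = 0.00157) and had a log2 change of -0.80 in FLOX mice that did not pass (adjusted p = 0.0580). Sesn3 and Ctsl were the 2 genes of this list that were higher in MKO mice on CR, by 1.29-fold and 1.36-fold, and on the control diet, by 1.38-fold and 1.26-fold. Over all genes 8.23% were called higher in MKO mice on CR and 9.06% on the control diet.

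Of 16 hypoxia genes, which include partners of Pdk1 in the response to low oxygen, restriction raised 3 and lowered 1 in MKO mice and raised 2 and lowered 1 in FLOX mice. The prolyl hydroxylase Egln3 was 2.50-fold higher in MKO mice and 2.24-fold higher in FLOX mice. In MKO mice 1 was higher and 2 were lower on CR, among them Vegfa (1.35-fold lower), and 2 were higher and 1 lower on the control diet. Of 21 transcription factors known to act on Pdk4, the estrogen-related receptor gene Esrra was 1.40-fold lower in MKO mice on CR and 1.44-fold lower on the control diet, and Rora was 1.40-fold and 1.23-fold higher. Counts for this list were 1 higher and 0 lower for CR in MKO mice, 1 and 2 for CR in FLOX mice, 2 and 1 for MKO on CR, and 4 and 3 for MKO on the control diet. Over all genes 15.1%, 10.0%, 17.3% and 19.3% were called in these comparisons, in the same order. The hypoxia and transcription factor counts were not tested against these shares. Of the remaining markers, 0 of 4 tested adipocyte and 0 of 2 tested Schwann cell genes were called by limma in any group comparison (0 and at most 1 at an unadjusted p under 0.05). Of 5 macrophage genes, 1 fell with restriction in MKO mice and 2 in FLOX mice, and 1 was lower in MKO mice on the control diet. The macrophage gene Cd74 fell with restriction in both genotypes (log2 changes of -1.62 in MKO and -1.49 in FLOX mice).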
